A study of Mus musculus with 34 samples.

Results

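The genes of the CTCF and cohesin machinery were followed in E11.5 mouse limb buds, chosen by name: Ctcf, the ring subunits Smc1a, Smc3 and Rad21, the ring-associated subunits Stag1 and Stag2, the loader Nipbl, and the release factors Wapl, Pds5a and Pds5b. All 10 were found among the 22040 protein-coding genes of the mRNA-seq table, and all 10 were among the 12305 genes tested, those with a mean FPKM (fragments on a gene, scaled to its length and to a size set for the library) of at least 0.5. The study asked how loss of hnRNPK, a poly(C)-binding protein, affects the limb bud, and its mRNA-seq compared 3 CKO libraries (Prrx1-Cre;Hnrnpk fl/fl) with 3 WT libraries (Hnrnpk WT). The Prrx1-Cre transgene is active in limb bud mesenchyme and calvarium, so blood, vessel, ectoderm and muscle precursor cells of a CKO limb bud are not its main targets. Embryos of both sexes were used. How many embryos a library held, and whether the WT embryos carried a floxed allele or the transgene, is not given in the sources used here.

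CTCF is a zinc finger protein that binds DNA and acts as an insulator, and cohesin is a ring of SMC and kleisin proteins that entraps DNA. Nipbl promotes the loading of the ring and its extrusion of chromatin loops, Wapl with the Pds5 proteins opens the ring, and a ring that meets CTCF tends to stall there, which marks loop anchors and the borders of topologically associating domains. The same ring holds sister chromatids together in dividing cells, so its genes are active in most proliferating embryonic tissues.

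No member passed the test between CKO and WT. With limma on log2(FPKM + 0.1), 0 of 10 members had a Benjamini-Hochberg adjusted p under 0.05, where 0.065% of all genes tested did, and their adjusted p ran from 0.622 for Stag2 to 0.9995 for Pds5a. At an unadjusted p under 0.05 the count was 0 of 10, against 8.31% of all genes. With the replicate number as a block, 0 of 10 were called (2.81% of all genes), and 2 of 10, Stag2 and Wapl, had an unadjusted p under 0.05 (18.4% of all genes). The fold changes were small and mostly above 0: 9 of 10 were higher in CKO by the fitted value, where 50.9% of all genes were, with a median log2 fold change of 0.12 against 0.0048 over all genes tested. The count above 0 depended on the scaling between libraries, and was 7 of 10 under quantile normalization (median 0.04) and 6 of 10 when the values were rescaled without the globin genes (median 0.0099, where the median of all genes was -0.10). Against the median of all genes, 8 of 10 members were higher as deposited and 8 of 10 after that rescaling. They also depended on single libraries: without WT replicate 2, 5 of 10 members were above 0 with a median of 0.03, and without CKO replicate 1, 8 of 10 with a median of 0.07.

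**Figure D1:**
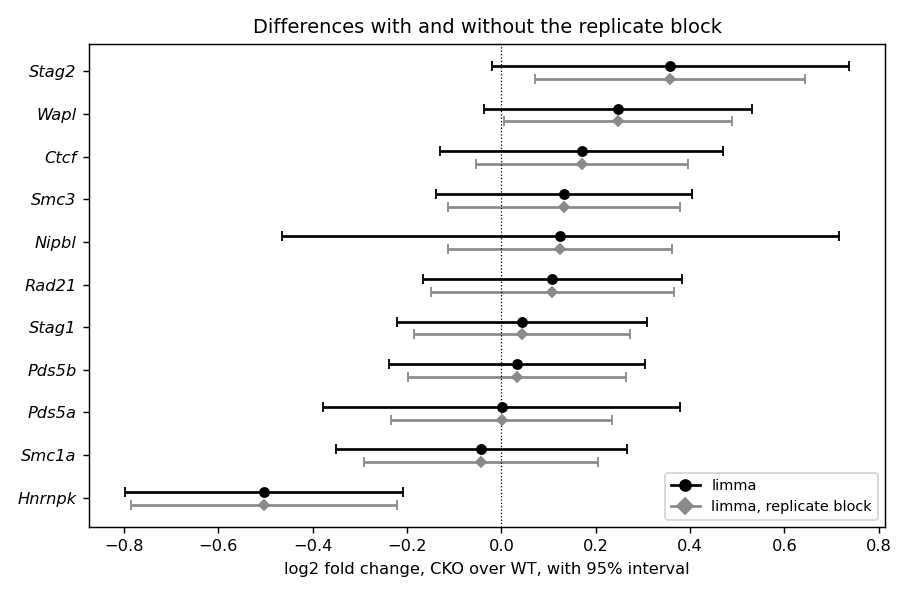
Log2 fold change of each member and of Hnrnpk, CKO over WT, as fitted by limma, with its 95% interval (horizontal bars) without (black circles) and with (grey diamonds) the replicate number as a block. Without the block every member's interval crosses 0, Stag2 stands highest at 0.36 and Smc1a lowest at -0.04, and the interval of Hnrnpk lies below 0.

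The intervals give the changes that these values are compatible with. In the main fit, on the deposited scaling, the lower end of the 95% interval was above -0.5 on the log2 scale for all 10 members. The upper end was under 0.5 for 7 of them, all but Stag2, Nipbl and Wapl. Between 2846 and 10769 reads stood behind each member in each library, so counting error is small beside the spread between libraries. For Nipbl the reads are approximate, since they did not come out whole. The intervals rest on limma's SE, which also draws on the spread of other genes. For Rad21 this SE was 0.12, against 0.049 in an ordinary linear model. For Nipbl, Stag2 and Pds5a limma's SE was the smaller, at 0.25 against 0.32, 0.16 against 0.18 and 0.16 against 0.18. For the other members it was the larger. Other scalings give other intervals, and rescaled without the globin genes Nipbl was at 0.019 with an SE of 0.32.

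Hnrnpk (chr13:58391142-58403343 on GRCm38, minus strand), the targeted gene, was at 193, 195 and 185 FPKM in WT replicates 1 to 3 and at 127, 142 and 135 FPKM in CKO. Every CKO value was under the lowest WT value. The log2 fold change was -0.50 (SE 0.13, 95% interval -0.80 to -0.21), with a limma adjusted p of 0.334 and 0.0575 with the block. The deletion takes out an internal run of exons, while the FPKM sums all exons, so transcript of the deleted allele can still be counted, and 330 exon bases are shared with Rmi1 on the other strand. In bulk tissue, fewer cells of a type and less RNA per cell cannot be told apart, for Hnrnpk as for the members.

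The libraries differed in ways that the groups do not share. Between 17140869 and 24624434 reads fell on the listed genes. The size by which the authors divided was not the read total: these reads were 1.11 times it in CKO replicate 2 and 1.03 times in CKO replicate 3, where the remaining 4 libraries had 0.947 to 0.968. A further scaling is thus part of the deposited values. On the first principal component, which held 52.6% of the variance, replicate 1 of both groups stood apart from the other 4 libraries. The 10 limb mesenchyme markers were present in each library, with a summed level of 416 to 457 FPKM in WT and 354 to 409 in CKO, Prrx1 among them at 54.5 to 62.0 and 51.6 to 60.8 FPKM. Of this list, Tbx5, the forelimb regulator, had a limma adjusted p of 0.358, which was 0.0073 with the block (log2 fold change -0.93). Globin genes took 13.7% to 20.6% of the summed FPKM in WT and 11.7% to 32.4% in CKO, the highest share in CKO replicate 2, and 6 erythroid genes summed to 481 to 565 FPKM in WT and 406 to 1050 in CKO. Muscle genes summed to 11.3 to 44.5 FPKM in WT and 29.5 to 63.3 in CKO, where Actc1, a muscle actin, had an adjusted p of 0.815 and 0.0266 with the block (1.05). Endothelial genes summed to 23.7 to 33.7 in WT and 16.5 to 26.5 in CKO, macrophage genes to 12.6 to 20 and 14.3 to 23.8, ectoderm genes to 28.1 to 38.4 and 29.2 to 39.7, and neural crest genes to 3.27 to 7.94 and 6.56 to 8.29. No marker of these lists was at 0 in a library, and their part in the members' values was not tested.

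By length-normalised level, Rad21, the kleisin that closes the ring, was the most abundant member, at a mean of 102 FPKM over the 6 libraries. Smc1a (56.2 FPKM) and Smc3 (51.2 FPKM), the SMC arms of the ring, followed, then Ctcf at 41.9, Stag2 at 28.1, Wapl at 27.1, Pds5b at 19.4, Nipbl at 18.1, Pds5a at 16.4 and Stag1 at 12.9 FPKM. Rad21 was thus 7.87 times as abundant per length as Stag1. The order between genes depends on the merged exon length by which reads are divided. Pds5a, with 19335 bases, had 5926 to 6873 reads in a library, and Pds5b, with 9839 bases, had 3628 to 4217. In the order by FPKM only Rad21 and Smc1a, and Wapl and Pds5b, had ranges over libraries that did not overlap between neighbours. Within each library, however, Smc3 was above Ctcf, Ctcf above Stag2, and Pds5a above Stag1 in all 6. The level of Stag1 was above that of 68.1% of all genes tested and the level of Rad21 above that of 97.2%.

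**Figure D2:**
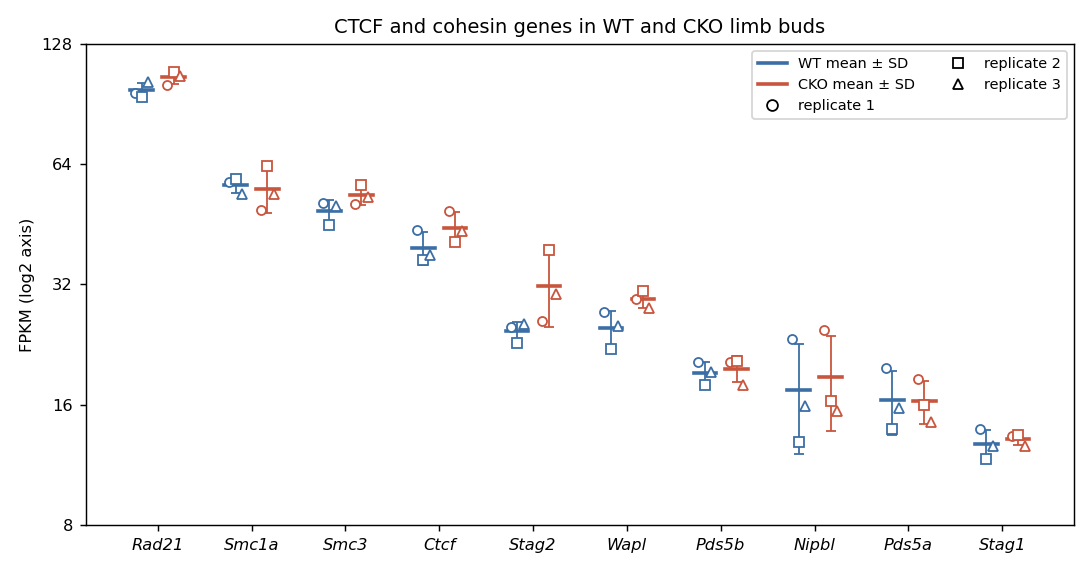
FPKM of the 10 members in each library (log2 axis), ordered by mean level, WT in blue and CKO in red, with symbols for the replicate number, thick lines for the group mean and bars for the SD (n = 3). The groups overlap for 8 members, while all CKO points of Stag2 and Wapl lie above all WT points.

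The insulator gene Ctcf (chr8:105636568-105682922 on GRCm38, plus strand, 15 merged exons) was at 43.7, 36.8 and 37.9 FPKM in WT replicates 1 to 3 and at 48.9, 40.8 and 43.5 in CKO. The groups overlapped, since WT replicate 1 exceeded CKO replicates 2 and 3. The mean was 39.5 ± 3.75 FPKM (SD, n = 3) in WT and 44.4 ± 4.14 in CKO. The log2 fold change was 0.17 (SE 0.13, 95% interval -0.13 to 0.47) with a limma adjusted p of 0.804, a difference of 12.5% with an interval from -8.57% to 38.5%. Each CKO library was above the WT library of its own number, by 0.16, 0.15 and 0.20 on the log2 scale. Replicates 2 and 3 are not clearly paired by number. Across genes, deviations from the group mean correlated at 0.49 between WT replicate 2 and CKO replicate 3, against 0.44 between WT replicate 2 and CKO replicate 2. With the block the interval was -0.05 to 0.40 and the adjusted p 0.404. Part of the exons overlaps genes on the other strand, Agrp over 114 bases and the long noncoding RNA Gm5914 over 370. The library kit keeps the strand, and the strand setting of the counting is not given in the sources used here.

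Rad21 (chr15:51962240-51991747, minus strand) had 96.4, 94.5 and 103 FPKM in WT replicates 1 to 3, and 101, 109 and 107 FPKM in CKO. WT replicate 3 lay within the CKO range, and the log2 fold change was 0.11 (SE 0.12, 95% interval -0.17 to 0.38; limma adjusted p 0.867). Smc3 (chr19:53600398-53645833, plus strand) had 51.3, 45.1 and 50.3 FPKM in WT and 51.0, 56.7 and 52.9 in CKO, which gave a log2 fold change of 0.13 (SE 0.12, -0.14 to 0.40; adjusted p 0.837). Here CKO replicate 1 alone lay within the WT range. Smc1a (chrX:152016428-152062694, plus strand) had 57.9, 58.9 and 54.0 FPKM in WT and 49.2, 63.3 and 54.0 in CKO. It was the only member with a fitted value below 0, at -0.04 (SE 0.13, -0.35 to 0.27; adjusted p 0.955), and the CKO libraries spread on both sides of WT.

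Stag1 and Stag2 encode alternative subunits of the ring that bind Rad21 and contact CTCF. Stag2 (chrX:42149317-42277185, plus strand) was at 25.03, 22.9 and 25.4 FPKM in WT replicates 1 to 3 and at 25.96, 39.1 and 30.3 FPKM in CKO. All CKO values were above all WT values, CKO replicate 1 only just so and CKO replicate 2 by the widest margin. The log2 fold change was 0.36 (SE 0.16, 95% interval -0.02 to 0.74), the highest fitted value of the 10, with a limma adjusted p of 0.622 and 0.172 with the block (interval 0.07 to 0.64). The exact two-sided permutation test over libraries gave p = 0.1, the smallest that 3 against 3 allows. The difference was uneven, at 0.05, 0.77 and 0.25 within numbers 1, 2 and 3. Leaving out replicate 1 of both groups raised it to 0.51 with an adjusted p of 0.0084, in a fit that called 15% of all genes, and leaving out CKO replicate 2 lowered it to 0.20.

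Stag2 lies on the X chromosome, as does Smc1a, and the libraries differed in sex-linked RNA. The mean level of 4 Y-linked genes (Ddx3y, Eif2s3y, Kdm5d and Uty) was 4.28, 5.24 and 6.76 FPKM in WT replicates 1 to 3 and 8.30, 3.26 and 2.14 FPKM in CKO, so the CKO libraries with the highest Stag2 had the lowest Y-linked levels. With the Y-linked level as a covariate, added after these levels were seen, the log2 fold change of Stag2 was 0.29 with a limma adjusted p of 0.926. The mean of 4 X-linked genes that escape inactivation (Eif2s3x, Kdm6a, Kdm5c and Ddx3x) was 78.7, 53.5 and 57.5 FPKM in WT and 65.8, 83.8 and 68.9 in CKO.

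Stag1 (chr9:100597798-100959375, plus strand) was at 13.9, 11.7 and 12.6 FPKM in WT and at 13.3, 13.4 and 12.6 in CKO. The CKO range lay inside the WT range, and the log2 fold change was 0.04 (SE 0.11, 95% interval -0.22 to 0.31; limma adjusted p 0.946). The ratio of Stag1 to Stag2 within a library does not change with the scaling between libraries. Stag1 made up 35.7%, 33.9% and 33.1% of the summed Stag1 and Stag2 FPKM in WT and 34.0%, 25.6% and 29.3% in CKO. The mean share was 34.3% ± 1.34 (SD, n = 3) in WT and 29.6% ± 4.20 in CKO, with CKO replicate 1 inside the WT range. The log2 ratio was lower in CKO by -0.32 (exact two-sided permutation p = 0.3, adjusted over 5 pairs 0.7), and lower within each number, by -0.11, -0.58 and -0.26.

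**Figure D3:**
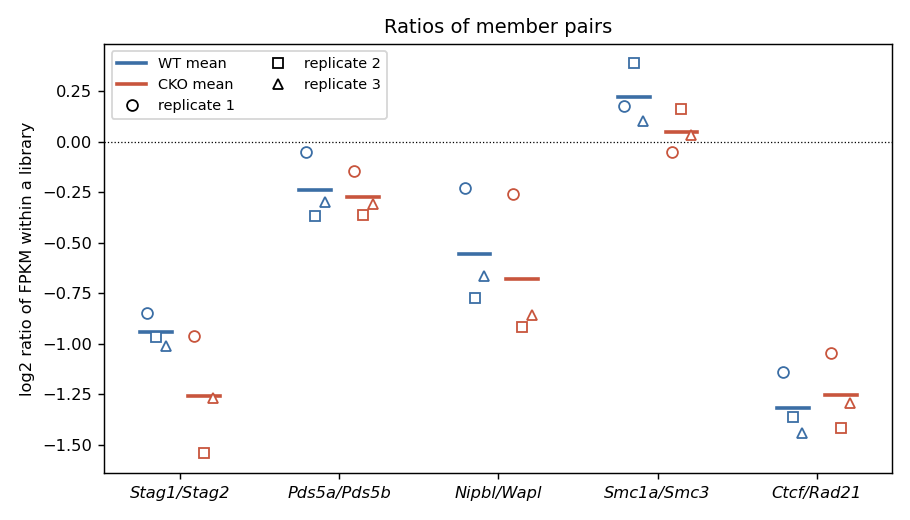
Log2 ratio of the FPKM of 2 members within each library, for the 5 pairs compared, with WT in blue, CKO in red, symbols for the replicate number and lines for the group mean (n = 3). The groups overlap in every pair, the mean of Stag1/Stag2 is -0.94 in WT and -1.26 in CKO, and replicate 1 of both groups is highest in Pds5a/Pds5b, Nipbl/Wapl and Ctcf/Rad21.

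Nipbl (chr15:8290617-8444463, minus strand), the loader, was at 23.3, 12.9 and 15.9 FPKM in WT replicates 1 to 3 and at 24.6, 16.4 and 15.5 FPKM in CKO. It varied most between libraries of all members, 1.90 times from the lowest to the highest, and replicate 1 was high in both groups. Its log2 fold change of 0.12 (SE 0.25) therefore had the widest interval, -0.47 to 0.72 (limma adjusted p 0.928). With the block the interval narrowed to -0.11 to 0.36 (adjusted p 0.570). Its FPKM times the exon length of the annotation did not come out as whole reads, so the length the authors used for this gene may differ.

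Wapl (chr14:34673928-34747983, plus strand), which frees cohesin from chromatin, was at 27.3, 22.1 and 25.1 FPKM in WT and at 29.4, 30.8 and 28.0 in CKO. All CKO values were above all WT values, as for Stag2, and 2 of 10 members were separated this way where 5.63% of all genes tested were. The mean was 24.9 ± 2.65 FPKM (SD, n = 3) in WT and 29.4 ± 1.41 in CKO. The log2 fold change was 0.25 (SE 0.12, 95% interval -0.04 to 0.53), with a limma adjusted p of 0.659 and 0.258 with the block (interval 0.0061 to 0.49). The exact permutation p was 0.1. Within numbers 1, 2 and 3 the difference was 0.11, 0.48 and 0.16.

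The Pds5 paralogs hold Wapl and other regulators on the ring. Pds5a (chr5:65605721-65698273, minus strand) was at 19.7, 13.9 and 15.7 FPKM in WT and at 18.5, 16.01 and 14.5 in CKO. The log2 fold change was 0.00034 (SE 0.16, 95% interval -0.38 to 0.38; limma adjusted p 0.9995). Pds5b (chr5:150673739-150810690, plus strand) was at 20.5, 17.9 and 19.3 FPKM in WT and at 20.5, 20.6 and 18.0 in CKO, which gave a log2 fold change of 0.03 (SE 0.12, -0.24 to 0.30; adjusted p 0.963). In both genes the CKO libraries fell among the WT libraries or close to them. Pds5a made up 45.9% ± 2.84 of the summed Pds5a and Pds5b FPKM in WT (SD, n = 3) and 45.3% ± 1.95 in CKO. This share is per exon length, and by reads Pds5a was above Pds5b in each library.

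The log2 ratio of Pds5a to Pds5b differed by -0.03 between CKO and WT (exact two-sided permutation p = 0.7) and that of Ctcf to Rad21 by 0.06 (p = 0.6). The log2 ratio of Nipbl to Wapl differed by -0.12 (exact permutation p = 0.5) and was lower in CKO within each number, by -0.03, -0.14 and -0.19. The log2 ratio of Smc1a to Smc3, which form the ring in equal number, was 0.22 ± 0.15 (SD, n = 3) in WT and 0.05 ± 0.11 in CKO, and was lower in CKO within each number, by -0.23, -0.23 and -0.07. That order depended on pairing the libraries by number, since CKO replicate 2 was at 0.16 and WT replicate 3 at 0.10. The exact permutation p of this ratio was 0.2. Over the 5 pairs the adjusted p was 0.7 for each. In a paired exact test by number, Stag1/Stag2, Nipbl/Wapl and Smc1a/Smc3 had p = 0.25, the smallest that 3 numbers allow. That test takes the libraries as paired by number, which the sources used here do not state.

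Within the numbers, the members moved most in number 2. All 10 were higher in CKO replicate 2 than in WT replicate 2, with a median difference of 0.20 on the log2 scale, while 6 of 10 were higher in number 1 and 6 of 10 in number 3, with medians of 0.03 in each. Ctcf, Rad21, Stag2 and Wapl, 4 of the 10, were higher in CKO within all 3 numbers, as were 18.2% of all genes tested, and none was lower in all 3. Proliferation genes, which dividing cells express with cohesin, had median differences of -0.09, 0.29 and 0.17 in the same order. All 11 of them were above 0 by the fitted value (median 0.17), 8 of 11 under quantile normalization and 8 of 11 when rescaled without globin genes, and none passed the test. Against the median of all genes, 11 of 11 were higher both as deposited and after that rescaling. CKO replicate 2 was also the library with the most globin RNA and with the most reads for its divisor, and the part of these in the members' values was not tested.

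**Figure D4:**
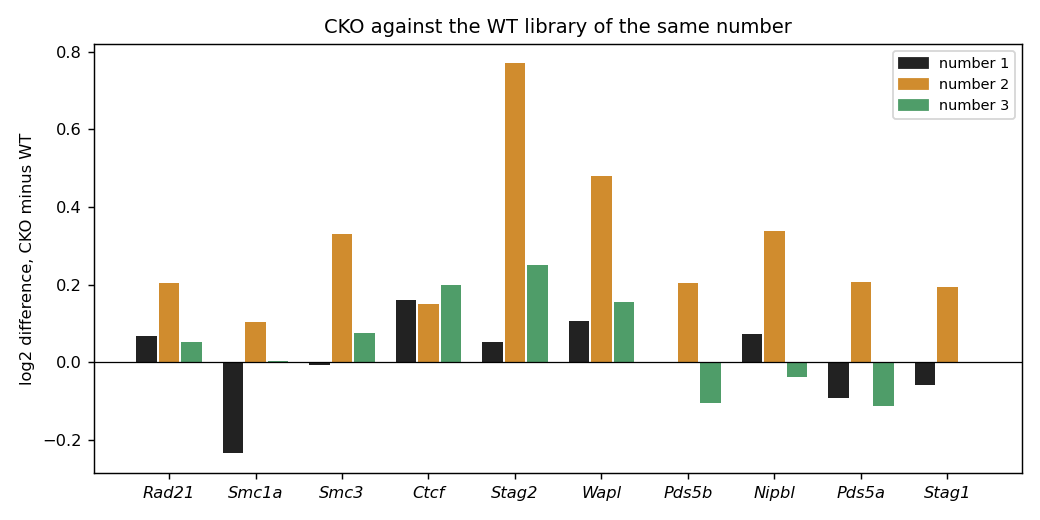
Log2 difference of each member between the CKO library and the WT library of the same replicate number (bars from 0, one colour per number), ordered by mean level. The bars of number 2 are above 0 for all 10 members and reach 0.77 for Stag2, those of Ctcf are of like height in the 3 numbers, and Smc1a has the lowest bar at -0.24 in number 1.

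Replicate 1 of both groups differed from the others along gene length, and the members followed this in part. The median log2 difference of replicate 1 from replicates 2 and 3 was -0.31 among genes with the shortest merged exons, up to 2432 bases, and 0.20 among those with the longest, from 7602 bases, when genes were split by length into 5 classes of about equal size. The members have merged exons of 4232 bases (Rad21) to 19335 bases (Pds5a), and 7 of 10 were higher in replicate 1. Nipbl stood out at 0.66, with Pds5a at 0.35 and Ctcf at 0.22, and Stag2 was the lowest at -0.18 although its exons are long (8273 bases). Since replicate 1 is found in both groups, the block takes this difference out of the comparison, and it changed the call of no member.

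**Figure D5:**
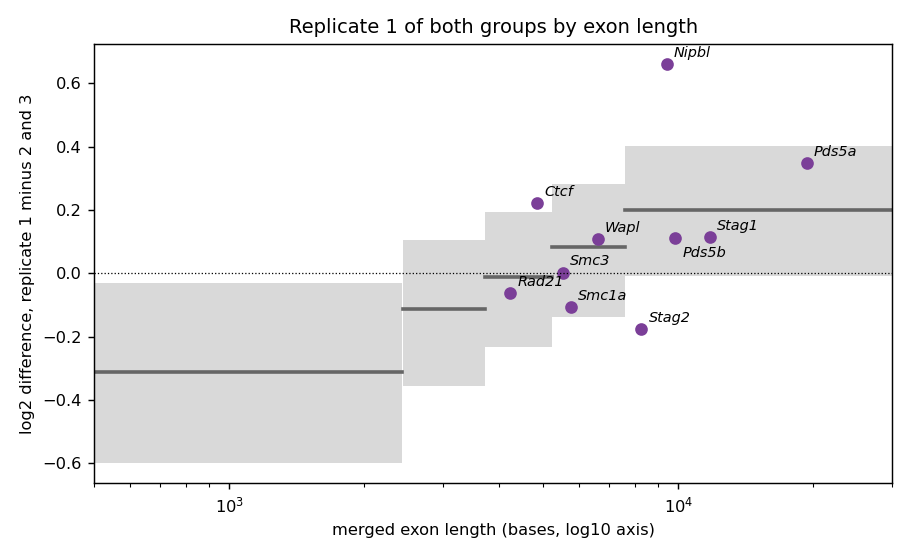
Log2 difference of replicate 1 from the mean of replicates 2 and 3, over both groups, against merged exon length (log10 axis). Points are the 10 members, and grey lines and boxes are the median and the middle range (quartiles) of all genes tested in each of the 5 length classes, drawn from 500 to 30000 bases: the medians climb from -0.31 to 0.20, Nipbl lies above its box at 0.66 and Stag2 below its box at -0.18.

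Of 10 cohesin regulators, all tested, 0 passed limma's adjusted threshold with or without the block, and 7 were above 0 by the fitted value (median 0.14), or 5 when rescaled without the globin genes. Against the median of all genes, which that rescaling also moves, 7 were higher in both. Sgo1, which shields centromeric cohesion, was highest at 0.30 (adjusted p 0.579) with all CKO values above all WT values, followed by Pttg1, the securin, at 0.25 (0.831). Hdac8, which deacetylates Smc3, was lowest at -0.26 (0.770), then Plk1, a mitotic kinase, at -0.09 (0.924). Of 15 genes listed for condensin and SMC5/6, the other SMC complexes, 0 passed and 11 were above 0 (median 0.07). The list also holds Smchd1, whose protein is a subunit of neither complex. After that rescaling 6 were above 0, and 11 were above the median of all genes in both. The fitted values ran from Smc4 at 0.18 (0.852) and Ncapg2 at 0.24 (0.777) to Smchd1 at -0.04 (0.964) and Nsmce2 at -0.07 (0.950).

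Of 10 genes whose proteins are known to act with CTCF, 0 passed the same test and 6 were above 0 (median 0.05), or 4 under quantile normalization and 2 after rescaling without the globin genes, while 6 were above the median of all genes as deposited and after that rescaling. Npm1, the nucleolar chaperone nucleophosmin, was at 654, 682 and 649 FPKM in WT and at 697, 1162 and 1009 FPKM in CKO. It thus had the highest value of these lists, 0.50 (SE 0.23; limma adjusted p 0.635). Zfp143, a zinc finger protein found at promoters with CTCF, was at 0.26 (0.710), Parp1 at -0.13 (0.884) and Patz1 at -0.19 (0.864). Over the 3 lists, an unadjusted p under 0.05 was reached by 1 of 35 genes (8.31% of all genes tested), and by 4 of 35 with the block (18.4% of all genes tested). CTCF and cohesin also have germline forms. Ctcfl, the germline paralog of Ctcf, reached at most 0.0519 FPKM in a library, Rad21l at most 0.0333 FPKM and Smc1b at most 0.217 FPKM. Rec8 was at 3.60 FPKM on average in both groups (log2 fold change 0.0093; adjusted p 0.994), and Stag3 at 1.49 FPKM in WT and 1.28 in CKO (-0.26; 0.863).

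By its profile over the 6 libraries, each gene centred on its own mean, Ctcf was most like Thrap3, with a root mean square difference of 0.01 on the log2 scale. Edrf1, Ddx56, Slc7a6 and 2410131K14Rik came next, at 0.02 to 0.03, and the median over all genes tested was 0.24. Among the other members, Stag1 was nearest to Ctcf at 0.10 and Stag2 farthest at 0.27. The mean profile of the 9 cohesin members was most like that of Ap1g1 at 0.02, then Tmem216, Pkn2, Zfr and Tti1, with a median of 0.23 over all genes. The points of each profile are libraries that share depth and the replicate 1 difference, and these values are descriptions.

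The RefSeq promoter windows (GRCm38.p6, 250 bases before a gene's start and 50 after) hold 7 of the 10 members. Their starts can differ from the GENCODE gene starts given with the genes. All 7 were rich in CpG, with 23 to 55 CpG in 300 bases where the median promoter has 7, and a GC content of 58.3% to 80.3% where the median is 52.7%. On either strand, the GC box GGGCGG was found in all 7 windows (35.7% of all promoters), CCAAT in 4 (37.4%), and the C-rich run CCCTCCC, of the kind hnRNPK is known to bind, in 2 (22.0%). TATAAA was found in 0 (13.6%), and the core of the CTCF motif (CCA, any 2 bases, AGG, any base, GG) in 0 (2.45%). GCCATNTT, the core letters of the motif of YY1, a zinc finger factor that also takes part in looping, was found in 4 of 7 windows, where 6.05% of all promoters hold it. None of these matches overlapped another. The shares are over all promoters, of which 21.5% have at least 23 CpG, and a share among CpG-rich promoters alone was not taken. The 4 windows with GCCATNTT are printed here, as the letters that most of the 7 share and few promoters have, each 5′ to 3′ on the gene's strand, with GCCATNTT and CCCTCCC on either strand in capitals. They lie at chr8:105636288-105636587 (Ctcf), chr19:53600146-53600445 (Smc3), chr9:100643198-100643497 (Stag1) and chr5:150673577-150673876 (Pds5b), all on the plus strand.
Ctcf: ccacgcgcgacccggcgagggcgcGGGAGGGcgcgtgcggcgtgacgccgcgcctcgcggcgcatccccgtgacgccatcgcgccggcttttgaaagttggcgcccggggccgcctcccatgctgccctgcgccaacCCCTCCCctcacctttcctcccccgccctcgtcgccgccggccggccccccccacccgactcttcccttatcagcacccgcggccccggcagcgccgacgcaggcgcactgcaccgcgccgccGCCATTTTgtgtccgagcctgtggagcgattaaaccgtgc
Smc3: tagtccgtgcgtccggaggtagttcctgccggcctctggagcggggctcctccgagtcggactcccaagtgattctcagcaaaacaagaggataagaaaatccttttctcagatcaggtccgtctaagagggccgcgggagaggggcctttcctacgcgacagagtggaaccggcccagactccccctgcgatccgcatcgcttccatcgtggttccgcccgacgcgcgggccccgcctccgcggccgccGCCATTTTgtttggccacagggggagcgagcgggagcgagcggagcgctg
Stag1: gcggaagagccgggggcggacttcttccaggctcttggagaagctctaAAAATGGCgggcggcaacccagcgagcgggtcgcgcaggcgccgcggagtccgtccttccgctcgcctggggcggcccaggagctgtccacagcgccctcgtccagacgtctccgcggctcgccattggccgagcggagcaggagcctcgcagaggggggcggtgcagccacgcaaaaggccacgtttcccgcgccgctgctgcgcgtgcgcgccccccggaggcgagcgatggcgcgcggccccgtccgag
Pds5b: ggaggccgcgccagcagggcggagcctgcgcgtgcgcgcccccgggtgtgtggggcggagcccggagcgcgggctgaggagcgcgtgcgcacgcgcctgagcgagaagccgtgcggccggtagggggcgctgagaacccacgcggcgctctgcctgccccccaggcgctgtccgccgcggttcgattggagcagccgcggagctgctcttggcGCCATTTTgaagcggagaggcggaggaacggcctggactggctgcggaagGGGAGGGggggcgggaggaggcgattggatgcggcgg

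In Ctcf the YY1 letters stand at bases 261 to 268 of the window, and in Smc3 at bases 251 to 258, both just after the RefSeq start. That start lies 30 bases before the GENCODE gene start in Ctcf and 2 bases before it in Smc3, 88 bases after it in Pds5b and 45650 bases after it in Stag1, whose window is thus inside the GENCODE gene. In Pds5b they stand at bases 214 to 221, and in Stag1 on the other strand at bases 49 to 56. Yy1 itself was at 23.5 FPKM in WT and 24.6 in CKO (log2 fold change 0.06; limma adjusted p 0.933). The letters are a description of the windows, and no binding was measured here. The windows with them belong to genes with log2 fold changes of 0.17, 0.13, 0.04 and 0.03, and those without them to Wapl, Pds5a and Smc1a with 0.25, 0.00034 and -0.04.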

How the data were processed

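mRNA-seq libraries of E11.5 limb bud cells from 3 WT and 3 CKO embryo samples were analysed. The chromatin samples (Hi-C, CUT&RUN, ATAC-seq) were not analysed here. The authors built stranded mRNA libraries and deposited FPKM per gene. The submitters' processing notes name cutadapt 2.5, HISAT2 2.1.0, featureCounts 1.6.3 and mm10, without assigning steps. Of the gene identifiers, 99.5% were found in GENCODE vM21 (GRCm38), and for 92.6% of these genes FPKM times merged exon length gave whole reads in each library, within 0.1 reads, from which depth was taken.

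Genes averaging 0.5 FPKM or more were compared as log2(FPKM + 0.1) with limma 3.58.1 (lmFit, eBayes with trend) in R 4.3.3, with Benjamini-Hochberg adjustment over 12305 genes. Fold changes are on the log2(FPKM + 0.1) scale. The code of the fit was checked on simulated data with independent noise of the same spread for every gene. Those data held no difference between replicates, so the check does not cover the spread seen here. Ratios within a library were compared by exact permutation in SciPy 1.17.1. The study calls the replicates biological.

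Deviations from the group mean, correlated across genes between WT and CKO libraries of the same number, gave 0.64, 0.44 and 0.27. Between numbers, WT 2 with CKO 3 gave 0.49 and WT 3 with CKO 2 gave 0.31, while pairs of replicate 1 with other numbers were below 0, so it is replicate 1 that stands apart. What a number marks is not stated. Since each number was above 0.1, the blocked fit is given beside the main fit, which has no block. It was an alternative, as were other pseudocounts, filters, scalings, models, recovered reads and left-out libraries.

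The members, lists and tests were chosen with earlier results of these data known. Named genes were all members, Hnrnpk, other listed genes past the threshold with or without the block, the 2 highest and 2 lowest of the regulator, condensin and CTCF partner lists, the germline paralogs, and the 5 genes nearest in profile. Yy1, and the sex-linked genes, were named after their values were seen.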

Additional observations from a re-analysis of the deposited data

How the results depend on the processing

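Ctcf, Smc3, Stag2 and Wapl kept their direction under all 20 alternatives. The other members changed sign under at least 1. Changing only the filter, the variance model or the block leaves the fitted fold changes as they are, so those alternatives could not reverse a direction. With a pseudocount of 1, Pds5a was at -6.7e-05. Under quantile normalization Rad21 was at -0.020 and Pds5a at -0.018. Rescaling without the globin genes moved the median of all genes to -0.10, and that of the members to 0.0099, with Stag1 at -0.063, Pds5a at -0.11 and Pds5b at -0.073, and the genes called among all tested were then 4 higher and 0 lower, against 7 higher and 1 lower. With the Y-linked covariate, added after the data were seen, Smchd1 was at 0.0094.

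Over the fits that left out a library or replicate 1 of both groups, the count of members called ran from 0 to 1 (Stag2 without replicate 1) and that of the 3 other lists from 0 to 3 (Ncapg2, Npm1 and Sgo1 without replicate 1). The fit without replicate 1 called 15% of all genes tested. The log2 fold change ran from -0.14 to 0.053 for Smc1a, -0.014 to 0.11 for Stag1, 0.20 to 0.51 for Stag2, -0.083 to 0.36 for Nipbl, -0.11 to 0.14 for Pds5a, -0.018 to 0.097 for Pds5b and -0.54 to -0.45 for Hnrnpk (limma adjusted p 0.0377 without replicate 1). It ran from 0.11 to 0.41 for Ncapg2, 0.34 to 0.71 for Npm1, 0.22 to 0.41 for Sgo1, -0.21 to 0.13 for Nsmce2, -0.24 to 0.040 for Plk1, -0.17 to 0.092 for Smchd1 and -0.25 to 0.010 for Parp1. The range was 0.098 to 0.25 for Ctcf and 0.075 to 0.20 for Smc3, and that of the members' median 0.030 (without WT replicate 2) to 0.15. The log2 ratio difference ran from -0.46 to -0.17 for Stag1/Stag2, -0.24 to -0.093 for Smc1a/Smc3, -0.097 to 0.060 for Pds5a/Pds5b, -0.33 to 0.040 for Nipbl/Wapl and -0.040 to 0.15 for Ctcf/Rad21. A group left with 2 libraries shares the spread of the others.

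The replicate block, with the pairing of libraries by number, called 0 members and changed no call of a member or of the regulator, condensin and CTCF partner lists. Among the marker lists it added a call for Tbx5 and for Actc1, and the calls among all genes were 139 higher and 207 lower. On recovered reads with the block, limma voom called 235 higher and 393 lower, with Hnrnpk at -0.49 (adjusted p 0.0237). Without replicate 1 there were 867 higher and 984 lower. An ordinary linear model called 0 of 12305 genes. The causes were not tested. With 3 libraries per group, a ratio cannot reach an exact p under 0.1, and a member without a call can still differ by any amount within its interval.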
